A study of Homo sapiens with 4 samples.

Results

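Antigen presentation by HLA class I was read through 9 genes in a human renal carcinoma line depleted of SLFN5: the heavy chain genes HLA-B, HLA-C, HLA-E and HLA-F, the pseudogene HLA-V, the light chain gene B2M, and the peptide loading genes TAP1, TAP2 and TAPBP. They are 9 of the 57659 genes in the deposited table and were taken by gene symbol. Where a symbol stood in several rows, which was the case for all but B2M (5 to 9 rows, alternative copies of the major histocompatibility complex included), the row with the highest mean was kept. The other rows of these symbols were at a value of 0 or nearly so.

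All 4 libraries came from 786-0, an established line of renal cell carcinoma. Control 1 and Control 2 were transfected with control siRNA, and SLFN5 siRNA 1 and SLFN5 siRNA 2 with siRNA directed at SLFN5, a Schlafen family gene regulated by interferon. The labels give no siRNA sequence, dose, time after transfection or interferon treatment, so a single line, with the target reduced and not deleted, is the model. The design text speaks of triplicates, whereas 2 libraries per group were analysed here. No label says that they came from separate cultures, so the spread behind the p-values may be technical. That spread is not a gene's own alone, since the test draws in large part on genes of similar level.

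Class I molecules show peptides from inside the cell to CD8 T cells. The peptides are made by the proteasome, pumped into the endoplasmic reticulum by the transporter TAP, trimmed by aminopeptidases and loaded onto a heavy chain paired with beta-2 microglobulin, while tapasin holds the empty chain next to the transporter. Most of these genes are inducible by interferon gamma through IRF1, and the class I promoters are also driven by NF-kappaB and by the transactivator NLRC5. In renal carcinoma the level of this machinery bears on recognition by T cells and natural killer cells.

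Values are equalised counts, which are read counts that the authors' tool had adjusted to a common library size. The recovered depth ran from 13187517 counts in Control 2 to 31905328 in Control 1. The targeted gene was lower in both SLFN5 siRNA libraries, at 167 and 118 against 420 and 353 in the controls (log2 change -1.45, SE 0.21, adjusted p = 0.000524 by limma). The line's own markers PAX8, VIM, KRT8 and KRT18 were present in every library, and 10 such markers together took 6163 to 7130 CPM (recovered counts relative to the library total). Of the 8 among them that were tested, CDH6 and LHX1 rose by 1.42 and 1.14 on the log2 scale, and VIM and CDH2 fell by 0.46 and 0.47 (adjusted p = 0.00215, 0.00077, 0.014 and 0.00516), while PAX8, KRT8 and KRT18 were among those that did not pass. CA9 and NDUFA4L2, often high in clear cell carcinoma, had only 4 and 23 recovered counts over the 4 libraries. Of 13 leukocyte markers 6 had no count, PTPRC had 1 count and CD3E 0, and the 13 together took 2.41 and 2.27 CPM in the controls and 3.97 and 2.72 after SLFN5 siRNA. Most of those counts came from CSF1R, at 109 over the 4 libraries (log2 change -0.00, adjusted p = 0.999), and ITGAM, at 18 and 1 in the controls and 30 and 15 after SLFN5 siRNA (log2 change 1.96, adjusted p = 0.0559). The 9 endothelial and fibroblast markers took 10 and 6.14 CPM in the controls and 6.19 and 4.83 after SLFN5 siRNA. Among them LUM had 257 counts over the 4 libraries (log2 change -0.96, adjusted p = 0.0789) and COL1A1 202 (-0.19, adjusted p = 0.772). PDGFRB, with 76 counts, was called lower (-1.82, adjusted p = 0.0336). The part of these markers in the results was not tested. A count of 0 over all 76911173 recovered counts allows up to 0.039 CPM, which covers counting error only.

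Promoter windows of these genes hold matches to some of the elements through which class I genes are known to be controlled. They are shown for a heavy chain gene, the light chain gene and the 3 loading genes, so that genes called lower and genes not called can be read side by side. Each of the 5 holds an interferon regulatory factor element, whereas the other elements differ from gene to gene. RefSeq windows of the 250 bases before the most upstream start (build GRCh38.p14) were at hand for 7 of the 9 genes. The following 5 are printed 5′ to 3′ on the gene's strand, HLA-B at chr6:31357180-31357429 (minus strand), B2M at chr15:44711267-44711516 (plus), TAP1 at chr6:32853705-32853954 (minus), TAP2 at chr6:32838740-32838989 (minus) and TAPBP at chr6:33314079-33314328 (minus). Capitals mark matches, on either strand, to the interferon regulatory factor elements GAAANNGAAA and GAANNGAAA, the kappaB element GGGNNTTNCC, the letters TGACG found in X2 boxes, and the inverted CCAAT box ATTGG.
HLA-B: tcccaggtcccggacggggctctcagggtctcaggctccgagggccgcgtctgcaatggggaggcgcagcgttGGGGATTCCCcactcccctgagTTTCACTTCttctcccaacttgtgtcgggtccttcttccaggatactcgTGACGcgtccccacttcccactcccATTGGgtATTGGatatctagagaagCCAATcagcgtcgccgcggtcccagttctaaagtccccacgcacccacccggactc
B2M: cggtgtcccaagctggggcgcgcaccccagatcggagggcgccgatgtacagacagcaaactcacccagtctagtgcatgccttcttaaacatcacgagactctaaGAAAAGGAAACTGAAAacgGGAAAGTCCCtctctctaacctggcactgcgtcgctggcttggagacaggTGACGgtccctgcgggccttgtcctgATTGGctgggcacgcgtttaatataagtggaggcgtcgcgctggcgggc
TAP1: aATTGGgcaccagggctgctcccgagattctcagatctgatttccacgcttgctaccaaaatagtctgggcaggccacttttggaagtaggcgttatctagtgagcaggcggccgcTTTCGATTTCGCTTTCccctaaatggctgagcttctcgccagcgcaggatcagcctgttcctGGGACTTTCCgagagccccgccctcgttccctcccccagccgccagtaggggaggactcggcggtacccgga
TAP2: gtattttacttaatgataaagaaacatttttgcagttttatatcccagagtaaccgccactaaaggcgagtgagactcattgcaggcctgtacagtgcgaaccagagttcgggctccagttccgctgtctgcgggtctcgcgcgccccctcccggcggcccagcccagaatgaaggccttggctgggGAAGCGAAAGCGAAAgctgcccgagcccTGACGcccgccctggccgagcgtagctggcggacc
TAPBP: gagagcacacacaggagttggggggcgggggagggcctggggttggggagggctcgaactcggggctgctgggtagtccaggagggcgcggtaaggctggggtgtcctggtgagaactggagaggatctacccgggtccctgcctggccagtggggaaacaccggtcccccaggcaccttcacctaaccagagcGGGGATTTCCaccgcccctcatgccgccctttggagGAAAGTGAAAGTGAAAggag

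A GAAANNGAAA match stood in the windows of B2M, TAP1, TAP2, TAPBP and HLA-F, against 3.02% of all 35116 RefSeq windows of this length. In B2M, TAP1 and TAPBP there were 2 overlapping matches each. HLA-B and HLA-C held the shorter GAANNGAAA, as did TAP2, where it overlaps the longer match; 6.56% of all windows hold it. The kappaB letters stood in HLA-B, B2M, TAP1 and TAPBP (5.07% of all windows). TGACG stood in HLA-B, HLA-C, B2M and TAP2 (21.2%), and ATTGG in HLA-B, HLA-C, HLA-F, B2M and TAP1 (32% of all windows). The GAS element TTCNNNGAA was also searched for and had no match in the windows of these genes, against 6.57% of all windows. The HLA-B and HLA-C windows were identical at 89% of aligned positions, HLA-B and HLA-F at 80.3%, and HLA-C and HLA-F at 78.6%. A match is a description of letters and was not measured as a bound site here.

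Both transporter genes fell after SLFN5 siRNA, the pseudogene HLA-V rose, and the 4 heavy chain genes, B2M and TAPBP did not pass the test. All 9 were tested. The count of 1 higher and 2 lower stands against 13.3% of 15640 tested genes called higher and 16.3% called lower, or 29.6% in either direction. Those background counts of 2086 higher and 2544 lower became 1346 and 1588 without Control 2, and 2771 and 1744 when counts were scaled by library totals alone. The median log2 change of the 9 was 0.15, against -0.03 for all tested genes. The values of the groups did not overlap for HLA-V, B2M, TAP1 and TAP2, which is 4 of 9, whereas the groups did not overlap for 64.6% of all tested genes. The count among the 9 is thus near the background, and the gene by gene values below carry the description.

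**Figure D1:**
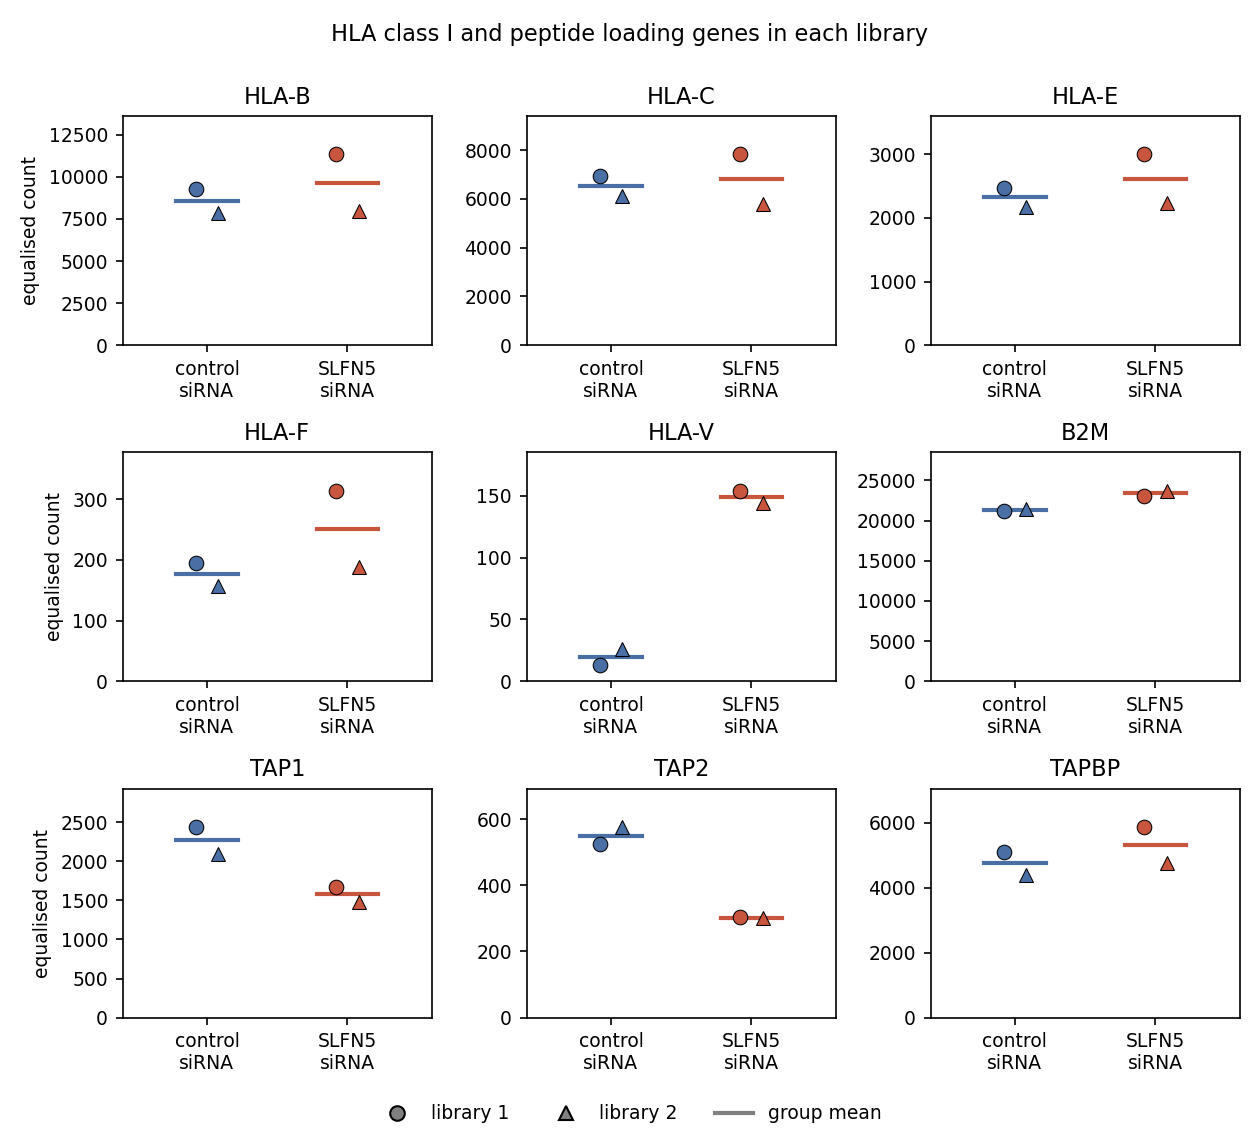
Equalised counts (vertical axes, each from 0) of the 9 genes in the 4 libraries, blue for control siRNA and red for SLFN5 siRNA, with circles for library 1, triangles for library 2 and a bar for the group mean. TAP1 and TAP2 sit lower and HLA-V higher in both SLFN5 siRNA libraries, while the heavy chain genes and TAPBP overlap between groups.

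HLA-B (ENSG00000234745), which encodes a classical heavy chain, had 9297 and 7855 equalised counts after control siRNA, and 11333 and 7962 after SLFN5 siRNA. The lower library of each group was close to that of the other, and SLFN5 siRNA 1 was the highest of the 4. The log2 change was 0.15 (SE 0.16, adjusted p = 0.505), a ratio of 1.11 with a 95% interval from 0.878 to 1.41. HLA-C (ENSG00000204525), the other classical chain here and a ligand of killer cell receptors, stood at 6954 and 6109 in the controls and at 7823 and 5789 after SLFN5 siRNA. Its SLFN5 siRNA libraries were the highest and the lowest of the 4, and the log2 change was 0.05 (SE 0.14, adjusted p = 0.845, ratio 1.03 with an interval from 0.833 to 1.28).

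HLA-E (ENSG00000204592) encodes the non-classical chain that shows leader peptides of other class I chains to the NKG2A receptor. It stood at 2472 and 2176 in the controls and at 2999 and 2241 after SLFN5 siRNA. The groups overlapped, and the log2 change was 0.16 (SE 0.14, adjusted p = 0.444, ratio 1.12 with an interval from 0.898 to 1.39). HLA-F (ENSG00000204642), a non-classical chain found in part without peptide, stood at 195 and 157 in the controls and at 314 and 188 after SLFN5 siRNA. SLFN5 siRNA 1 was the high library and SLFN5 siRNA 2 lay between the controls. Its log2 change of 0.47 (SE 0.25, adjusted p = 0.187) is a ratio of 1.38 with an interval from 0.946 to 2.02. Between libraries of the same number HLA-F was higher after SLFN5 siRNA in both, by 0.68 and 0.25 on the log2 scale, and with the replicate number as a block it passed the test (0.47, adjusted p = 0.0369), though no label says that a number marks a shared culture or batch.

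The direction of the classical and HLA-E changes rested on SLFN5 siRNA 1. Without that library the log2 change was -0.10 for HLA-B, -0.17 for HLA-C and -0.05 for HLA-E, and without Control 2 it was -0.05 for HLA-C, none of them past the threshold. The size of the HLA-F change rested on both SLFN5 siRNA libraries: it was 0.10 (adjusted p = 0.804) without SLFN5 siRNA 1 and 0.84 (adjusted p = 0.0237) without SLFN5 siRNA 2. Without Control 2 it was 0.31 (adjusted p = 0.515). The intervals thus leave room for changes of up to 1.41 times for HLA-B and 2.02 times for HLA-F, and do not show that the chains were unchanged.

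Within each group the heavy chain genes, TAPBP and TAP1 differed in the same direction. Control 1 was above Control 2 by 0.18 to 0.31 on the log2 scale for HLA-B, HLA-C, HLA-E, HLA-F and TAPBP, and SLFN5 siRNA 1 was above SLFN5 siRNA 2 by 0.30 to 0.74. Of these, HLA-F had the widest difference in both groups. TAP1 differed likewise, by 0.22 and 0.17. The differences were -0.02 and -0.04 for B2M, -0.14 and 0.00 for TAP2, and -0.96 and 0.10 for HLA-V. Over all tested genes the 5th and 95th percentiles of these differences were -0.60 and 0.79 between the controls and -0.72 and 0.90 between the SLFN5 siRNA libraries, so the differences of the heavy chain genes, TAPBP and TAP1 are of a size common in the table. The ratio of HLA-B to HLA-C values within a library was 1.34 and 1.29 in the controls and 1.45 and 1.38 after SLFN5 siRNA.

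**Figure D2:**
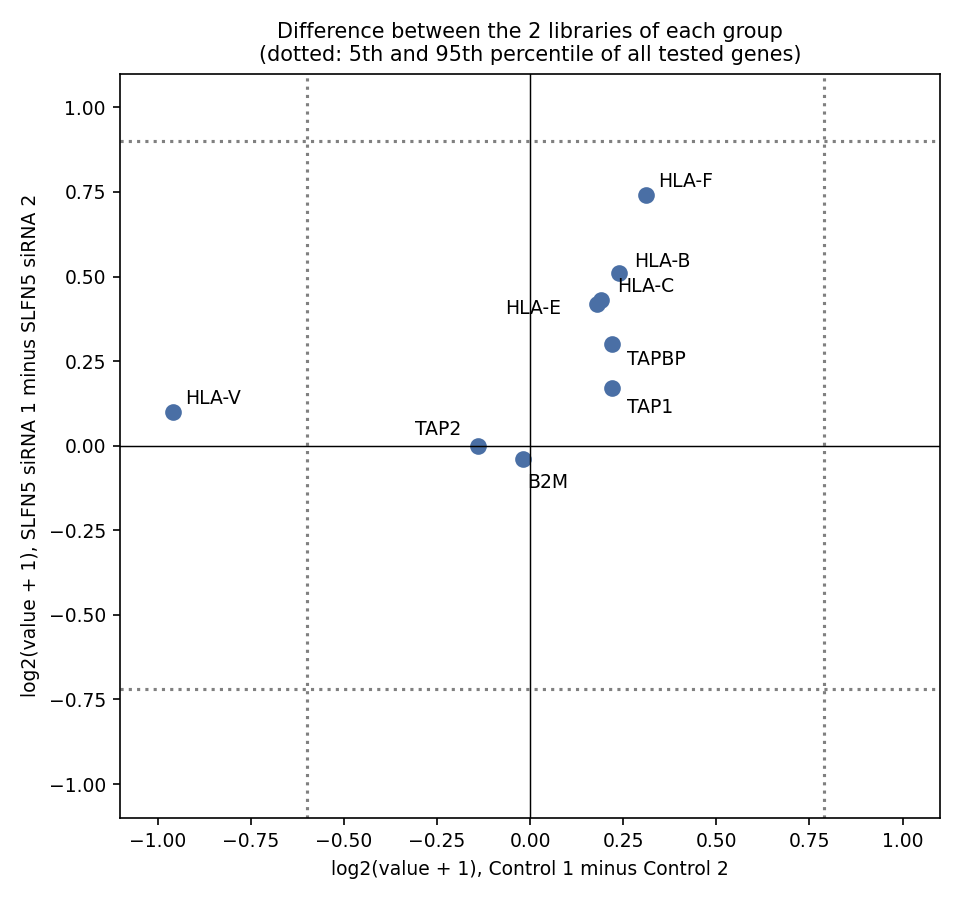
Difference between the 2 libraries of a group on the log2(value + 1) scale, controls on the horizontal axis and SLFN5 siRNA on the vertical axis, for the 9 genes, with dotted lines at the 5th and 95th percentiles of all tested genes. HLA-B, HLA-C, HLA-E, HLA-F, TAPBP and TAP1 lie in the upper right, B2M near 0 on both axes, and HLA-V at -0.96 for the controls.

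B2M (ENSG00000166710), the light chain that class I heavy chains pair with, stood at 21170 and 21441 in the controls and 23106 and 23715 after SLFN5 siRNA. Its libraries lay close together within each group and the groups did not overlap. The log2 change was 0.14 (SE 0.11, adjusted p = 0.375), a ratio of 1.1 with an interval from 0.935 to 1.29. This SE draws mostly on genes of similar level and is not the spread of the B2M values alone. Quantile normalization, which forces the same distribution on each library, gave 0.32 with an adjusted p of 0.0193, so the call depends on the scaling.

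HLA-V (ENSG00000181126) is a class I pseudogene in the same stretch of chromosome 6 as HLA-F. It stood at 13 and 26.2 equalised counts in the controls and at 154 and 144 after SLFN5 siRNA. These values rest on 24 and 19 recovered counts in the controls and 151 and 124 after SLFN5 siRNA. Both SLFN5 siRNA libraries were far above both controls, and the log2 change was 2.94 (SE 0.37, adjusted p = 0.000186), a ratio of 7.69 with an interval from 4.41 to 13.4. It was called under each of the 15 other settings tried, at log2 changes of 2.46 to 3.42. On the log2(value + 1) scale the change of a gene this low is understated.

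HCG4, a pseudogene on the opposite strand that lies wholly within HLA-V in GENCODE 29, rose with it. It stood at 25.7 and 32.7 in the controls and at 103 and 80.5 after SLFN5 siRNA, with a log2 change of 1.62 (SE 0.33, adjusted p = 0.00346). Of the 5617 distinct windows of 50 bases in HLA-V transcripts, 11% also occur in HCG4 and 12.2% in any other gene. The kit named in the labels does not mark strand in its standard form and the counting is not given in the sources used here, so reads of HLA-V and of HCG4 cannot be told apart where the genes overlap. HLA-G, at 29 recovered counts over the 4 libraries, and HLA-P, at 0, were not tested. The nearest tested class I genes did not show a change of the size seen for HLA-V. HLA-F lies on one side with the value above, and the pseudogenes HLA-H and HLA-K on the other were at log2 changes of 0.46 (adjusted p = 0.369) and 0.84 (adjusted p = 0.285). The ratio of the HLA-V value to the HLA-F value, not corrected for length, was 0.0666 and 0.167 in the controls and 0.492 and 0.767 after SLFN5 siRNA.

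TAP1 (ENSG00000168394) and TAP2 (ENSG00000204267) encode the subunits of the peptide transporter, and neither works without the other. TAP1 stood at 2441 and 2097 in the controls and at 1669 and 1482 after SLFN5 siRNA. Both SLFN5 siRNA libraries were below both controls, with a log2 change of -0.52 (SE 0.13, adjusted p = 0.0087) and a ratio of 0.695 (interval 0.575 to 0.841). The call was lost without Control 1, the higher control, at a log2 change of -0.41 (adjusted p = 0.0893). TAP2 stood at 524 and 577 in the controls and at 303 and 302 after SLFN5 siRNA. The groups were well apart, with a log2 change of -0.86 (SE 0.15, adjusted p = 0.00172) and a ratio of 0.551 (interval 0.436 to 0.697), and TAP2 was called under each of the 15 other settings at -0.93 to -0.74.

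TAPBP (ENSG00000231925) encodes tapasin, which bridges the transporter and the heavy chain. It stood at 5112 and 4380 in the controls and at 5873 and 4769 after SLFN5 siRNA. The groups overlapped, and the log2 change was 0.16 (SE 0.13, adjusted p = 0.384), a ratio of 1.12 with an interval from 0.92 to 1.36. Within a library the ratio of TAP1 to TAPBP values, not corrected for length, was 0.477 and 0.479 in the controls and 0.284 and 0.311 after SLFN5 siRNA, and that of TAP2 to TAPBP was 0.102 and 0.132 against 0.0515 and 0.0633. Both ratios were lower in each SLFN5 siRNA library than in each control, and were not tested. Fewer cells making a transcript and less RNA per cell cannot be told apart in such bulk libraries.

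Part of each gene's sequence is shared with other genes, which limits how reads can be assigned. The share of distinct 50-base windows that also occur in another gene of GENCODE 29 was 0% for B2M, 4.73% for TAPBP, 4.87% for HLA-E, 5.7% for HLA-C, 9.78% for TAP1, 17.8% for HLA-B, 21.6% for HLA-F and 31.3% for TAP2. For TAP2 all of these windows lie in AL669918.1, a gene model on the same strand that overlaps it and was at a value of 0 or nearly so in all 4 libraries. For TAP1 most lie in PSMB8-AS1 on the opposite strand, which stood at 29.4 and 33 in the controls and 46 and 60.1 after SLFN5 siRNA (log2 change 0.74, adjusted p = 0.14). The span of TAP1 also overlaps that of PSMB9 on the opposite strand, whose values are given below. HLA-B and HLA-C share 81 windows with each other. HLA-F overlaps HLA-F-AS1 on the opposite strand, which stood at 58.9 and 44.4 against 73.6 and 53.8 (log2 change 0.29, adjusted p = 0.542).

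Per kilobase of exon, the control means were ordered B2M at 8960 equalised counts, HLA-B at 5407, HLA-C at 4203 and TAPBP at 1131. Below them came HLA-E at 894, TAP1 at 767, TAP2 at 89.1, HLA-F at 88.8 and HLA-V at 3.47. This scale corrects for length alone. The counting is not given and the shared sequence differs from gene to gene, so the order is approximate. The ranges of the 2 controls did not overlap between neighbours in this order, except for TAP2 and HLA-F, which could not be ranked. Of the transporter transcripts TAP2 was the scarcer on this scale, at 84.8 and 93.4 per kilobase in the controls against 825 and 709 for TAP1. After SLFN5 siRNA the level of TAP2 was 49.0 and 48.9 per kilobase and that of HLA-F 158 and 94.7, so those genes no longer overlapped. HLA-V remained the lowest, at 27.3 and 25.5 per kilobase.

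The loading genes lie among others in the class II region, where neighbours were called in both directions. In chromosomal order TAP2 fell, PSMB8 rose, TAP1 fell, PSMB9 did not pass the test, BRD2 fell and RXRB rose. PSMB8, the immunoproteasome subunit between the transporter genes, stood at 953 and 825 in the controls and at 1283 and 1104 after SLFN5 siRNA (log2 change 0.42, SE 0.14, adjusted p = 0.0363). That call was lost without Control 2 and without SLFN5 siRNA 1, at 0.32 in both cases (adjusted p = 0.279 and 0.167). PSMB9, the immunoproteasome subunit that lies beside TAP1 on the opposite strand, stood at 492 and 528 against 492 and 407 (log2 change -0.19, SE 0.16, adjusted p = 0.411). The ratio of TAP2 to PSMB8 values was 0.549 and 0.700 in the controls and 0.236 and 0.274 after SLFN5 siRNA. BRD2, a bromodomain protein of acetylated chromatin, changed by -0.84 (SE 0.11, adjusted p = 0.000206), and RXRB, a retinoid receptor, by 0.97 (SE 0.15, adjusted p = 0.000609).

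Over the 3 nearest tested genes on each side of every one of the 9, there were 42 other genes, of which 7 were called higher and 8 lower, against 13.3% and 16.3% of all tested genes. Beside HLA-B, MICA fell by 0.87 and MICB fell by 1.04 on the log2 scale. Beside HLA-E, ABCF1 fell by 0.60 and PRR3 fell by 1.22. Beside B2M on chromosome 15, EIF3J fell by 1.07 and SPG11 rose by 0.64. Beside TAPBP, WDR46 fell by 0.74 and PFDN6 by 0.45, while RGL2 rose by 0.70 and ZBTB22 by 0.78. TCF19, beside HLA-C, rose by 0.70.

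**Figure D3:**
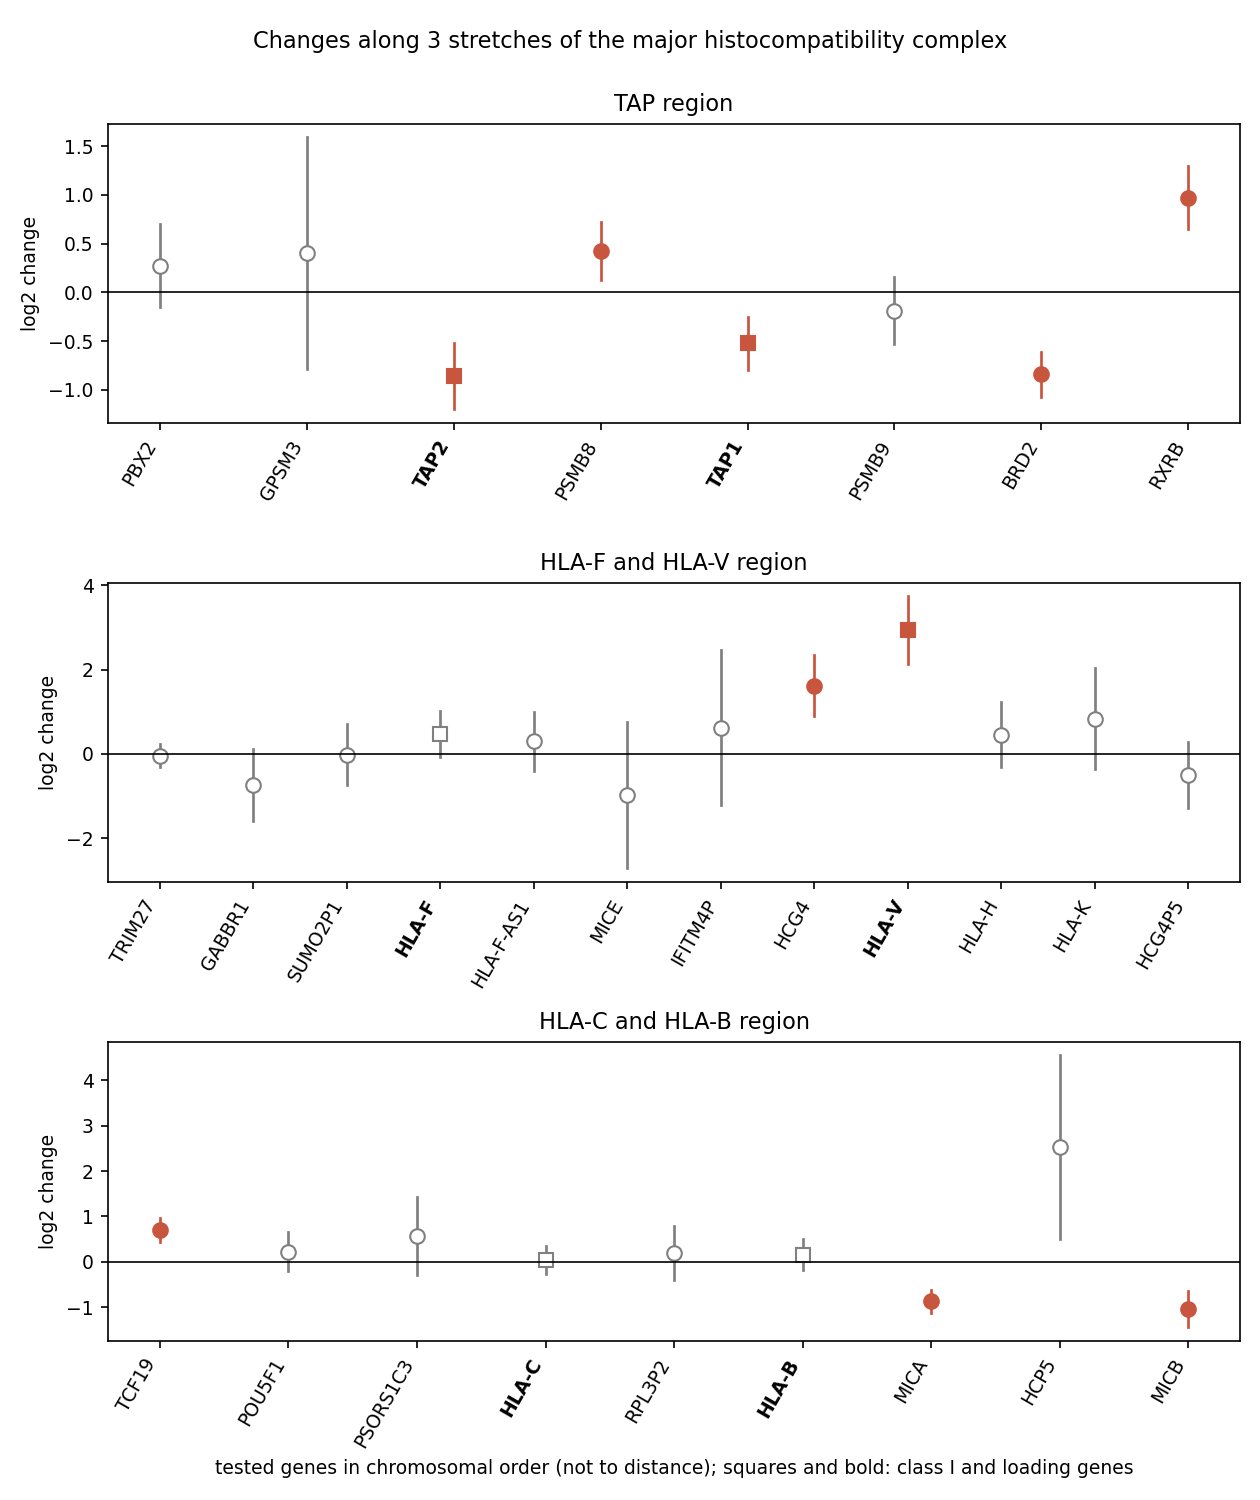
Log2 change, SLFN5 siRNA minus control, with the 95% interval from limma (vertical axes) for tested genes in RefSeq chromosomal order along 3 stretches of chromosome 6; filled red symbols passed the adjusted p threshold of 0.05, open grey ones did not, and squares are the class I and loading genes. PSMB8 at 0.42 stands between TAP2 at -0.86 and TAP1 at -0.52, and HLA-V and HCG4 rise out of a stretch where the other genes are near 0 or have wide intervals.

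Other genes of the class I route were read from lists. Of 59 tested genes in 8 such lists, 5 were called higher (8.47%) and 16 lower (27.1%), with a median log2 change of -0.14, against 13.3%, 16.3% and -0.03 for all tested genes. The count of higher calls was 3 without Control 1, 2 without Control 2 and 2 without SLFN5 siRNA 1. Of the other class I genes and pseudogenes listed, 3 were tested and did not pass, namely the pseudogenes HLA-H and HLA-K with the values above and HLA-L, at 36.3 and 32.2 against 34.7 and 20.1 (log2 change -0.36, SE 0.42, adjusted p = 0.566).

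Of 9 tested class I-like and stress ligand genes, 4 fell (44.4%) and none was called higher, against 16.3% and 13.3% of all tested genes. MICA and MICB, ligands of the NKG2D receptor on natural killer cells, stood at 2233 and 2340 against 1306 and 1192, and at 540 and 569 against 230 and 313. Their log2 changes were -0.87 (SE 0.12, adjusted p = 0.000288) and -1.04 (SE 0.18, adjusted p = 0.00136). PROCR, the endothelial protein C receptor, whose fold is like that of class I, changed by -0.87 (adjusted p = 0.000327). ULBP3, a further NKG2D ligand, changed by -0.54 (adjusted p = 0.0236) and lost its call without Control 1, without Control 2 and without SLFN5 siRNA 1, at -0.55, -0.53 and -0.45 (adjusted p = 0.0924, 0.127 and 0.092). ULBP2 stood at 206 and 214 against 209 and 266 and did not pass the test (log2 change 0.17, adjusted p = 0.576).

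Of 8 chaperones and trimming enzymes of the endoplasmic reticulum, 2 rose (25%) and none was called lower, against 13.3% and 16.3% of all tested genes. CALR (calreticulin, which holds the heavy chain in the loading complex) went from 13741 and 16025 to 17883 and 19985, a log2 change of 0.35 (adjusted p = 0.0447). ERAP2, an aminopeptidase that trims peptides, went from 3615 and 3585 to 4425 and 4729, also 0.35 (adjusted p = 0.0291). Both calls were lost without Control 1 (0.24, adjusted p = 0.347, and 0.35, adjusted p = 0.129) and without SLFN5 siRNA 2 (0.27, adjusted p = 0.198, and 0.30, adjusted p = 0.108). CALR also lost its call without SLFN5 siRNA 1 (0.43, adjusted p = 0.0524) and ERAP2 without Control 2 (0.34, adjusted p = 0.165). ERAP1 stood at 0.26 (adjusted p = 0.157), PDIA3, the thiol oxidoreductase bound to tapasin, at -0.14 (adjusted p = 0.414), and TAPBPL, a relative of tapasin, at 0.46 (adjusted p = 0.0515). CANX, another chaperone of the list, stood at -0.30 (adjusted p = 0.117), HSPA5 at 0.00 and UGGT1 at 0.10.

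Of the 6 genes of the immunoproteasome and the PA28 activator PSMB8 rose and POMP, a chaperone of proteasome assembly, fell by 0.81 on the log2 scale (adjusted p = 0.00134). Of the 3 constitutive catalytic subunits, PSMB7 fell by 0.72 (adjusted p = 0.000613) and PSMB5, the subunit that PSMB8 replaces, fell by 0.54 (adjusted p = 0.00425). PSMB5 stood at 2092 and 2164 in the controls and at 1492 and 1436 after SLFN5 siRNA, so PSMB8 and PSMB5 were called in opposite directions. Among 7 cytosolic peptidases of the route, IDE alone was called, at -1.35 (adjusted p = 2.29e-05). These counts stand against 13.3% of all tested genes called higher and 16.3% called lower.

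**Figure D4:**
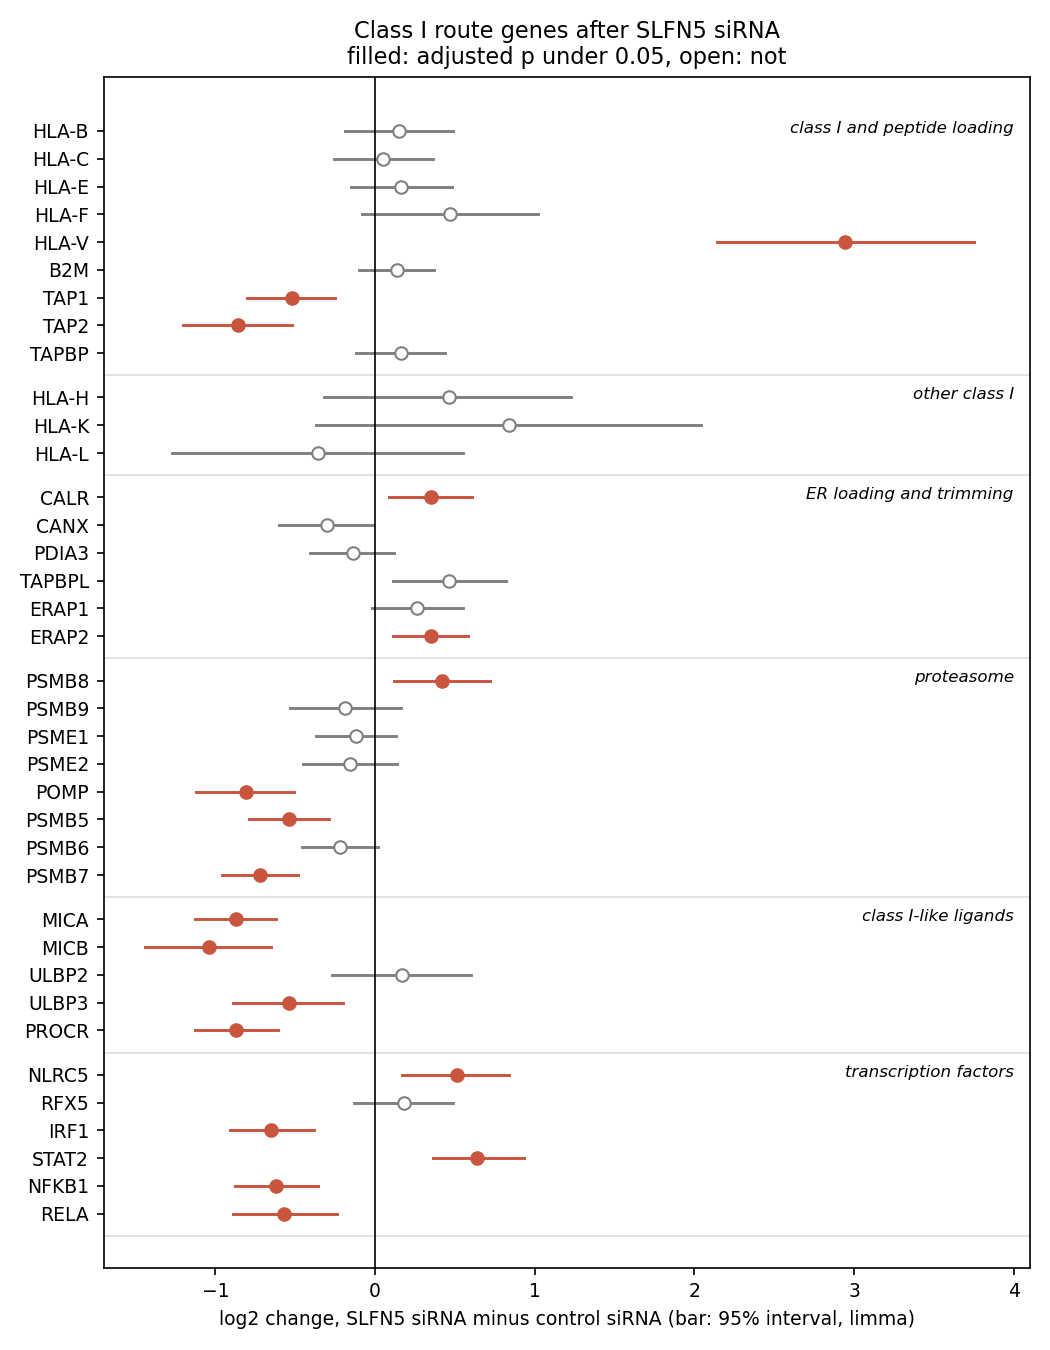
Log2 change, SLFN5 siRNA minus control (horizontal axis), with the 95% interval from limma for the 9 genes and for genes of the class I route grouped by role; filled red points passed the adjusted p threshold of 0.05 and open grey points did not. HLA-V stands alone at 2.94, and the heavy chain genes lie between 0.05 and 0.47 with intervals across 0. The transporter genes lie to the left, as do several called genes of the proteasome, class I-like ligand and transcription factor groups.

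Of 16 tested factors that act on class I promoters, 2 rose (12.5%) and 5 fell (31.2%), against 13.3% and 16.3% of all tested genes. IRF1, which binds the GAAANNGAAA type of element, stood at 1818 and 1681 in the controls and at 1165 and 1070 after SLFN5 siRNA (log2 change -0.65, SE 0.12, adjusted p = 0.00219). NFKB1, the precursor of the p50 subunit of NF-kappaB, changed by -0.62 (adjusted p = 0.00263), and NFYB, a subunit of the factor that binds CCAAT boxes, by -0.60 (adjusted p = 0.00972), with its call lost without Control 2 (-0.51, adjusted p = 0.115).

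NLRC5, the transactivator of class I promoters, went the other way, from 404 and 354 to 560 and 515 (log2 change 0.51, SE 0.16, adjusted p = 0.0291). Its call was lost without Control 2 (0.41, adjusted p = 0.231) and without SLFN5 siRNA 1 (0.44, adjusted p = 0.105). STAT2, a partner in type I interferon signalling, rose from 819 and 785 to 1339 and 1171 (log2 change 0.64, adjusted p = 0.00342). Of 7 interferon receptors and kinases, 3 fell (42.9%) and none was called higher, against 16.3% and 13.3% of all tested genes. Those called were IFNAR2 by 0.74, IFNGR1 by 0.54 and IFNGR2 by 0.39 on the log2 scale (adjusted p = 0.0108, 0.0163 and 0.0305). JAK2 at -0.66 (adjusted p = 0.0621), IFNAR1 at -0.09, JAK1 at 0.10 and TYK2 at 0.23 did not pass. Leaving out SLFN5 siRNA 2 ended the IFNAR2 call (-0.51, adjusted p = 0.0569). Leaving out Control 1, Control 2 or SLFN5 siRNA 1 ended that of IFNGR1 (-0.57, -0.51 and -0.44, adjusted p = 0.0526, 0.105 and 0.0718). IFNGR2 lost its call without any 1 of the 4 libraries, at -0.33 without Control 1, -0.46 without Control 2, -0.37 without SLFN5 siRNA 1 and -0.42 without SLFN5 siRNA 2 (adjusted p = 0.231, 0.0868, 0.0829 and 0.055).

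Class II genes, which professional antigen presenting cells express, were near absent. Of 13 listed genes CD74 alone could be tested, at 650 and 382 against 591 and 428 (log2 change 0.01, adjusted p = 0.975). HLA-DRA had 0 recovered counts and the class II transactivator CIITA had 12 over the 4 libraries.

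By the distance between centred log2(value + 1) profiles over the 4 libraries, the genes most like the mean of the 4 heavy chain genes were B4GALNT4, PITPNM1 and NXNL2, at distances of 0.035 to 0.050. Those most like B2M were AKAP11, PXN and CSNK1A1 (0.012 to 0.017), and those most like the mean of TAP1, TAP2 and TAPBP were MYEOV2, YDJC and PEX5 (0.022 to 0.034). These profiles are common in the table, since 508, 2062 and 1536 tested genes lay within a distance of 0.25. The mean of TAP1, TAP2 and TAPBP joins log2 changes of -0.52, -0.86 and 0.16 and is the profile of none of them. Its nearest genes stood at log2 changes of -0.41 to -0.42. No tested gene lay within 0.25 of HLA-V, a comparison added after its values were seen, and the nearest was RP13-941N14.1 at 0.429. The distance is not scaled and grows with the size of a change. The lack of near genes may thus restate the large change of HLA-V and does not show a pattern of its own.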

How the data were processed

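RNA-seq was read in 4 libraries of 786-0 cells, 2 per group. Per the labels' protocols, poly(A)-selected libraries made with a TruSeq RNA v2 kit were sequenced as single ends. The submitters' processing notes name hg19 and edgeR. The aligner, annotation, counting program and its use of strand were not given in the sources used here. Each deposited value is a signal, made by the authors from the gene's count by the adjustment to a common library size that edgeR calls pseudo-counts. Inverting it with a common dispersion of 0.0162 returned whole counts for 230636 of 230636 values (tolerance 1e-06), summing to 31905328, 13187517, 17117659 and 14700669. Among the fits, these counts entered only the alternatives by library totals, limma-voom and thinning.

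Genes at 10 or more in at least 2 libraries (15640) were fitted with limma 3.58.1 in R 4.3.3 on log2(value + 1), by group alone, with an intensity trend (prior degrees of freedom 9.60, residual 2) and Benjamini-Hochberg adjustment at 0.05. Fold changes on this scale understate changes of low genes. Every adjusted p comes from this fit unless a left-out library or another setting is named. The scripts were tested on simulated data. The 9 genes and the lists were chosen with earlier results of these data known. Besides the 9, the text names up to 4 called genes per list by largest change, 8 genes known in class I control, and the 3 most alike genes per profile. ULBP2, TAPBPL, CD74, the overlapping genes and the neighbours named were chosen after their values were seen. So were CANX, HSPA5, UGGT1, IFNAR1, JAK1, JAK2, TYK2, LUM, COL1A1 and PDGFRB. Promoter windows are from RefSeq (GRCh38.p14), while exon lengths and overlaps are from GENCODE 29 on GRCh38; the deposited table gives no sequence. Alternatives were 3 scalings, 2 pseudocounts, 2 filters, no trend, limma-voom and thinning on recovered counts, the replicate number as a block, and each library left out. Some genes of the route are not reported here.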

Additional observations from a re-analysis of the deposited data

How the results depend on the processing

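HLA-V, TAP2 and SLFN5 were called in the same direction under each of the 15 settings, and TAP1 under 13. Over the 9 genes and SLFN5, 141 of 150 comparisons kept direction and side of the threshold. Over 25 named related genes 330 of 375 did, 43 lost a call, ERAP1 gained one and PDIA3 changed sign under quantile normalization (0.05). Without an intensity trend TAP1 kept -0.52 with an adjusted p of 0.108, 1 of the 9 genes was called lower, 672 genes were called higher and 510 lower over all tested genes, and 1 and 3 in the related lists. Quantile normalization gave B2M 0.32 (adjusted p = 0.0193), which made 2 of the 9 genes higher. The median log2 change of all tested genes was -0.033 with the deposited scaling and 0.090 with library totals alone. The related lists held 8 higher calls with library totals alone and 8 by limma-voom. At a minimum value of 50 none of the other class I genes listed was left to give a median.

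With 1 library left out, the group left with 1 library is assumed to vary like the other. The log2 change then ranged from -0.10 to 0.41 for HLA-B, from -0.17 to 0.26 for HLA-C, from -0.05 to 0.37 for HLA-E, from 0.10 to 0.84 for HLA-F and from -0.63 to -0.41 for TAP1. Of the 9 genes 1 to 2 were called higher and 1 to 2 lower, of the related lists 2 to 4 higher and 12 to 15 lower, and of all tested genes 1346 to 1767 higher and 1588 to 2341 lower.

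The library titles carry an identifier that each control shares with the SLFN5 siRNA library of the same number. No label says that it marks a shared culture or batch, and 2 pairs do not settle it (correlation of the deviations of same-numbered libraries 0.190 over 15640 genes). With the replicate number as a block, HLA-F passed at 0.47 (adjusted p = 0.0369), which made 2 of the 9 genes higher, and the related lists held 10 higher and 22 lower calls, against 5 and 16 without it. It changed no other call among the 9. Over all tested genes it gave 3008 higher and 3695 lower. Depth limits HLA-V most, at 19 and 24 counts in the controls.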
